A study of Homo sapiens with 36 samples.

Results

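The E2F and DP genes encode the transcription factors that act downstream of cyclin-dependent kinase 4 (CDK4). The 10 genes described here, E2F1 to E2F8, TFDP1 and TFDP2, were taken from the table of normalised read counts by matching its Ensembl identifiers to these symbols in GENCODE release 44. They are 10 of the 29872 genes in the table, and all 10 were at or above a normalised count of 10 in each of the 36 libraries. Cells of LNCaP, a line derived from human prostate cancer that retains RB, were treated with AU2-94 at 1 or 2 µM, atirmociclib at 1 or 2 µM, ribociclib at 2 µM, or vehicle, for 24 h or 72 h, and total RNA was sequenced. AU2-94 and atirmociclib are CDK4-selective inhibitors, and ribociclib inhibits CDK4 and CDK6. In the study's kinase assays, atirmociclib was less selective than AU2-94. It inhibited CDK1, CDK2, CDK6, CDK7 and CDK9 more strongly than AU2-94 did. Each of the 12 groups had 3 libraries, numbered as replicates 1 to 3, and the labels name these numbers as batches. The vehicle libraries carry a dose of 2 µM in the labels. All groups are of this line, and the labels name no genetic change. Fewer cells per well were plated for 72 h, so that time and density cannot be told apart.

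E2F proteins bind DNA at the promoters of genes for DNA replication and cell cycle progression. In cells that do not divide, pocket proteins (RB, p107 and p130) hold E2F proteins in a repressive state, and CDK4 or CDK6 with a D-type cyclin phosphorylates the pocket proteins and releases them. E2F1, E2F2 and E2F3 are the activators, and RB is their main partner. E2F4 and E2F5 repress with p107 and p130, E2F6 represses without pocket proteins through Polycomb complexes, and the atypical E2F7 and E2F8 repress without a DP partner. TFDP1 and TFDP2 encode the DP proteins with which E2F1 to E2F6 bind DNA as heterodimers. Several of these genes are themselves E2F targets, E2F1, E2F2, E2F7 and E2F8 among them.

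Total normalised counts per library ran from 20675156 to 22692555 (median 21490183), which after normalisation does not give the sequencing depth. The 10 epithelial and prostate markers checked were all above 10 in every library. Of 9 markers of other cells (leukocytes, endothelium, fibroblasts, basal and neuroendocrine epithelium), 7 were under 10 in every library, COL1A1 ran from 194 to 644, and SYP was at 6.61 in its lowest library. The summed epithelial markers were 99591 to 104380 in vehicle and 134174 to 146657 in treated libraries at 24 h, and 99469 to 101897 against 144100 to 175818 at 72 h. The summed markers of other cells were 425 to 543 in vehicle and 221 to 437 in treated libraries at 24 h, and 512 to 656 against 506 to 663 at 72 h. COL1A1 made up most of each of these sums. Whether these shifts had a part in the E2F and DP changes was not tested.

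Promoter sequence is shown for 6 of the genes because E2F genes are known to be regulated by E2F proteins, and because the genes that fell furthest could be set beside those that moved least. Each stretch holds the 150 bases before the transcription start (RefSeq, GRCh38.p14), read 5′ to 3′ on the gene's own strand. Capitals mark the words TTTCGCG or TTTGGCG or TTTCCCG or TTTGCCG (common forms of the E2F site) where found on either strand. The stretch of E2F1 is chr20:33686386-33686535 (minus strand), that of E2F2 chr1:23531234-23531383 (minus), that of E2F3 chr6:20401729-20401878 (plus), that of E2F4 chr16:67192005-67192154 (plus), that of E2F7 chr12:77065570-77065719 (minus) and that of TFDP1 chr13:113584603-113584752 (plus).
E2F1: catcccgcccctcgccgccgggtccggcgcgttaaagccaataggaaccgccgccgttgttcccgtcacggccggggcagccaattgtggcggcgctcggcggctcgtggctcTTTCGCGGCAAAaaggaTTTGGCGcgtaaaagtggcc
E2F2: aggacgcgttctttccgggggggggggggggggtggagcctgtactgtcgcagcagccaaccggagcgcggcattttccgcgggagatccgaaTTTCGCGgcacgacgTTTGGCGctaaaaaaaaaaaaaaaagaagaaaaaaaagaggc
E2F3: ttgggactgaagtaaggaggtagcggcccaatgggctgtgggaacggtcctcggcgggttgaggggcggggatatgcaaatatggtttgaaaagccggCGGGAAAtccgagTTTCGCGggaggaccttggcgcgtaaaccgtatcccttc
E2F4: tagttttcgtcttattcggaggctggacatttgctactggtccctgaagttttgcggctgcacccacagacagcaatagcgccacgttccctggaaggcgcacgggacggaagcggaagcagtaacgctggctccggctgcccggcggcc
E2F7: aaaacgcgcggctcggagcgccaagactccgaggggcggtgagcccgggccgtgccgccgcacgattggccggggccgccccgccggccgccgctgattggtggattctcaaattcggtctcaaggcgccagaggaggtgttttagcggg
TFDP1: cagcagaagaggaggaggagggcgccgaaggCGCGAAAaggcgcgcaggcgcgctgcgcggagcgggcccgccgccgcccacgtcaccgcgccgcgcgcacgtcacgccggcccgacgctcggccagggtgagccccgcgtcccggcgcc

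E2F1 held 3 of these words in 2 separate sites, the first being TTTCGCG overlapped by the reverse complement of TTTGCCG, and the second TTTGGCG. E2F2 held TTTCGCG and TTTGGCG, spaced as 2 sites, and E2F3 held the reverse complement of TTTCCCG and then TTTCGCG. TFDP1 held the reverse complement of TTTCGCG. Of E2F3, the first of 2 RefSeq entries is shown, and the other held no word. The windows of E2F6 (TTTCCCG at 2 places) and TFDP2 (the reverse complement of TTTGGCG after the start) also held words. RefSeq starts can differ from the gene ends in GENCODE. No word was found in the windows of E2F4 and E2F7, which says only that these letters are not there. Of 35116 RefSeq promoter windows of 300 bases (250 before the start and 50 after), 8.67% held at least 1 separate site and 0.635% at least 2. The words were chosen with the sequences in view, so a match is a description and not a test. Windows were matched for 8 of the 10 genes, the unmatched being E2F5 and E2F8.

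Against vehicle, 5 genes were lower with all 5 treatments at both times: E2F1, E2F2, E2F7, E2F8 and TFDP1. At 24 h, 28 of 50 pairs of gene and treatment were called lower and 3 higher (limma, adjusted p at most 0.05), and at 72 h 29 were lower and 3 higher. Of all 16137 genes tested at 24 h, 13.5%, 14.9%, 15.4%, 16.2% and 15.2% were called lower and 14.3%, 16.0%, 16.6%, 18.6% and 16.8% higher (each series of 5 shares gives AU2-94, then atirmociclib, each with the lower dose first, then ribociclib). Of 16341 genes at 72 h, 17.0%, 15.3%, 19.8%, 19.6% and 15.4% were lower and 15.4%, 14.2%, 20.0%, 20.9% and 15.5% higher. A fall of at least 2-fold was called for 19 of 50 pairs at 24 h, against 2.40%, 2.94%, 4.22%, 4.82% and 3.66% of all genes, and for 15 of 50 at 72 h, against 0.869%, 0.838%, 2.67%, 3.67% and 1.54%. The 5 treatments share the same 3 vehicle libraries at each time, so their results are not independent of each other. In bulk RNA, a lower level per cell and fewer cells that express a gene cannot be told apart.

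**Figure D1:**
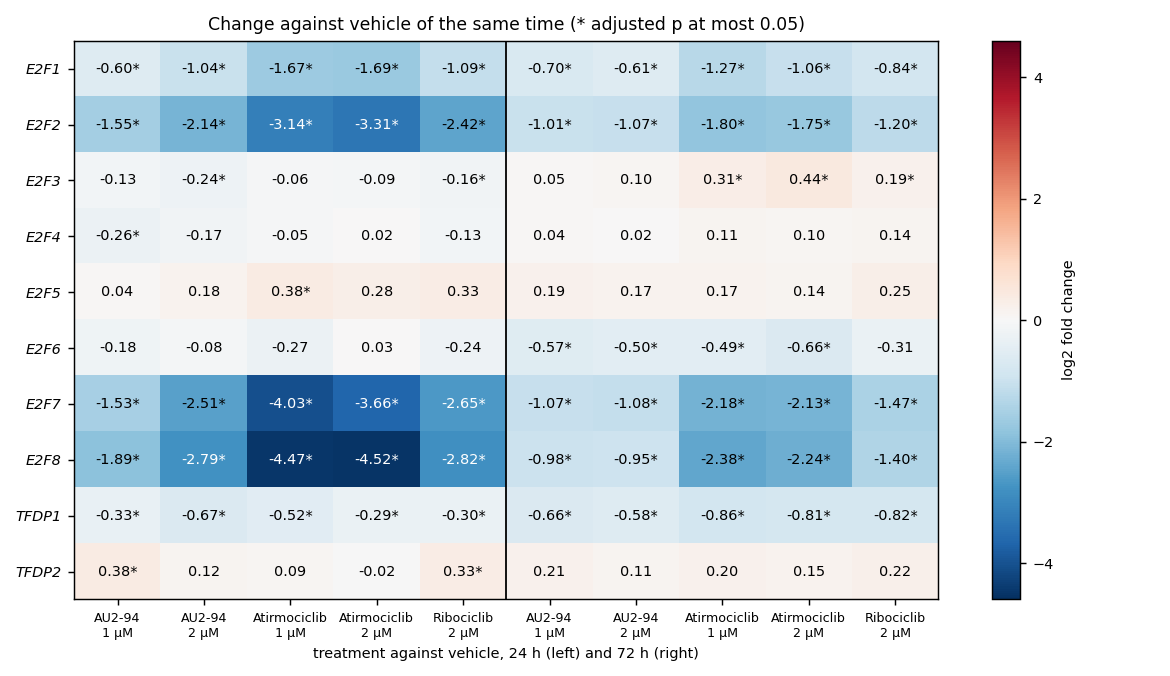
Log2 fold change against vehicle of each E2F and DP gene (rows) for each treatment at 24 h and 72 h (columns), with the value written in each cell and an asterisk where the adjusted p was at most 0.05 (limma, 3 libraries per group). E2F8 had the lowest value, -4.52 with atirmociclib at 2 µM for 24 h, and E2F3 was higher than vehicle at 72 h, up to 0.44.

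Values per library are given in normalised counts in the order of replicates 1, 2 and 3. E2F1 (ENSG00000101412, chr20:33675477-33686385 in GRCh38, minus strand) encodes the activator best known for induction of replication genes and of apoptosis. At 24 h, E2F1 stood at 970.2, 984 and 1069 in the vehicle libraries, 694, 651 and 649.9 with AU2-94 at 1 µM and 429, 523 and 524 at 2 µM. Atirmociclib gave 308, 325 and 311 at 1 µM and 286, 312 and 336 at 2 µM, and ribociclib 477, 449 and 487. The 15 treated libraries were all below the 3 vehicle libraries, the 6 atirmociclib libraries were lowest, and ribociclib overlapped AU2-94 at 2 µM. Log2 fold changes in the order AU2-94 1 and 2 µM, atirmociclib 1 and 2 µM and ribociclib were -0.60, -1.04, -1.67, -1.69 and -1.09 (SE 0.09, adjusted p 2.20e-11 to 4.12e-05). At 72 h, E2F1 stood at 1000.4, 1124 and 953 in the vehicle libraries, 598, 659 and 629.8 with AU2-94 at 1 µM and 705, 628 and 682 at 2 µM. Atirmociclib gave 427, 424 and 419 at 1 µM and 515, 474 and 482 at 2 µM, and ribociclib 589.5, 554 and 566. Again no treated library reached the vehicle range, and the groups kept apart except AU2-94 at its 2 doses. The log2 fold changes at 72 h were -0.70, -0.61, -1.27, -1.06 and -0.84 (SE 0.07, adjusted p 1.37e-10 to 6.14e-06).

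E2F2 (ENSG00000007968, chr1:23506438-23531233, minus strand), an activator expressed mainly in dividing cells, fell further than E2F1. At 24 h, E2F2 stood at 601, 475 and 442 in the vehicle libraries, 145, 186 and 186 with AU2-94 at 1 µM and 99.6, 107 and 134 at 2 µM. Atirmociclib gave 56.5, 50.7 and 60.8 at 1 µM and 52.3, 48.9 and 47.8 at 2 µM, and ribociclib 74.8, 118 and 89.8. Every treated library lay below every vehicle library, and the mean with atirmociclib at 2 µM was 9.82% of the vehicle mean. The log2 fold changes at 24 h, in the same order of treatments, were -1.55, -2.14, -3.14, -3.31 and -2.42 (SE 0.18, adjusted p 4.59e-11 to 3.16e-06). At 72 h, E2F2 stood at 602, 537 and 494 in the vehicle libraries, 288, 309 and 219.6 with AU2-94 at 1 µM and 281, 256 and 238 at 2 µM. Atirmociclib gave 146, 184 and 139 at 1 µM and 180.0, 148 and 156 at 2 µM, and ribociclib 287, 181 and 252. The atirmociclib groups overlapped each other and were below the AU2-94 groups, while ribociclib spanned the gap. Log2 fold changes at 72 h were -1.01, -1.07, -1.80, -1.75 and -1.20 (SE 0.16, adjusted p 6.24e-08 to 1.10e-04).

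E2F3 (ENSG00000112242, chr6:20401879-20493714, plus strand), an activator with broad roles in proliferation, moved far less, and downward at 24 h but upward at 72 h. At 24 h, E2F3 stood at 1245, 1303 and 1299 in the vehicle libraries, 1186, 1153 and 1181 with AU2-94 at 1 µM and 1058, 1138 and 1069.8 at 2 µM. Atirmociclib gave 1184, 1286 and 1231 at 1 µM and 1202, 1157 and 1264 at 2 µM, and ribociclib 1199, 1167 and 1086. The treated groups overlapped vehicle or lay just under it. E2F3 fell by 0.24 on the log2 scale with AU2-94 at 2 µM (SE 0.06, adjusted p = 0.00354) and by 0.16 with ribociclib (adjusted p = 0.0401). The ribociclib call was lost with replicate number as a block (adjusted p = 0.0552) and without any of 4 libraries, ribociclib replicate 2 (0.0630) or 3 (0.180) or vehicle replicate 2 (0.108) or 3 (0.103). It was also lost with no filter on low values (0.0541), with only ribociclib and vehicle in the fit (0.0750) and with quantile normalisation (0.0635). With libraries scaled to equal totals, E2F3 was also called lower at 24 h with AU2-94 at 1 µM (0.0331) and atirmociclib at 2 µM (0.0316). At 72 h, E2F3 stood at 1222, 1303 and 1239 in the vehicle libraries, 1268, 1272 and 1350.2 with AU2-94 at 1 µM and 1422, 1316 and 1299.8 at 2 µM. Atirmociclib gave 1514, 1525 and 1613 at 1 µM and 1719, 1685 and 1687 at 2 µM, and ribociclib 1429, 1401 and 1459. The direction was upward at 72 h, and all libraries of atirmociclib and ribociclib lay above the highest vehicle library. The rise was 0.31 with atirmociclib at 1 µM (adjusted p = 1.32e-04), 0.44 at 2 µM (2.09e-06) and 0.19 with ribociclib (0.0100), each with SE 0.05, and the ribociclib call was lost with only these groups in the fit (0.0556). The values with AU2-94 were 0.05 at 1 µM and 0.10 at 2 µM and passed no threshold, though the latter was called with quantile normalisation (0.0411).

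**Figure D2:**
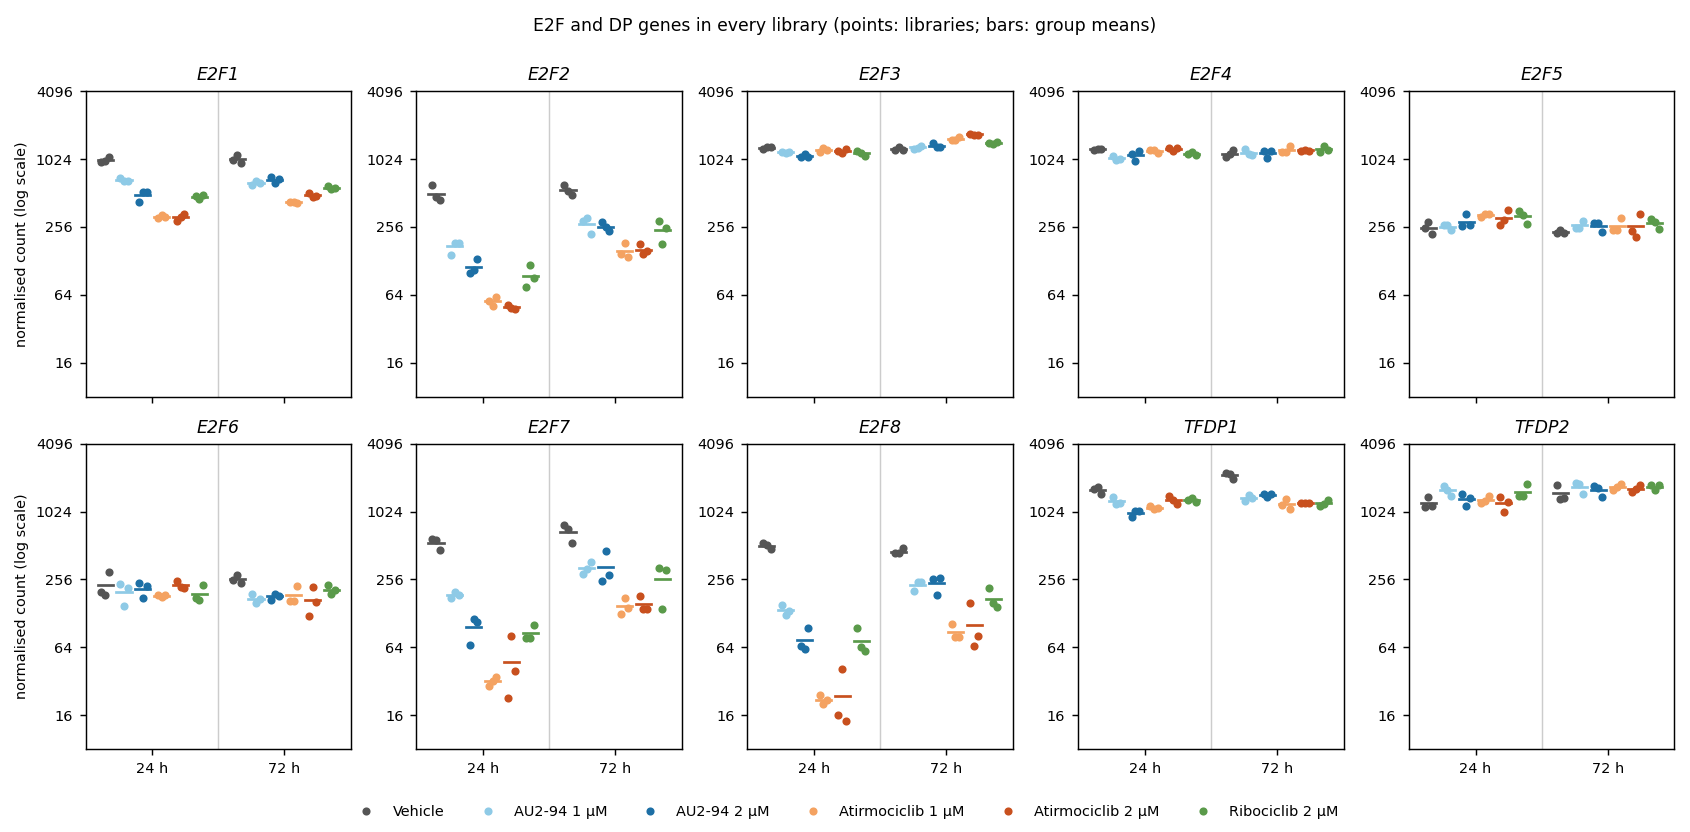
Normalised count (log axis) of each E2F and DP gene in the 36 libraries, 1 panel per gene, with points for libraries, bars for group means and colours for groups at 24 h and 72 h. In the panels of E2F1, E2F2, E2F7, E2F8 and TFDP1 all treated points lie below the vehicle points of the same time.

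E2F4 (ENSG00000205250, chr16:67192155-67198918, plus strand), the main E2F of resting cells and a subunit of the DREAM repressor complex, was the steadiest of the 10 genes, with a highest library of 1336 only 1.35 times the lowest, 989.5. Vehicle stood at 1219.9, 1247 and 1269.5 at 24 h, and AU2-94 at 1 µM at 1093, 1009 and 1026, below all 3 of them. This was its only call in the 10 comparisons with vehicle, -0.26 ± 0.07 (SE) with adjusted p = 0.00693. With AU2-94 at 2 µM the log2 fold change was -0.17 (adjusted p = 0.0603), which became 0.0189 without its replicate 3 and 0.0216 with libraries scaled to equal totals, and at 72 h the values ran from 0.02 to 0.14.

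E2F5 (ENSG00000133740, chr8:85177154-85217158, plus strand), which represses with p130, was above vehicle in some groups at 24 h. Vehicle stood at 251, 281 and 223 and atirmociclib at 1 µM at 311, 332 and 335, with no overlap. The difference of 0.38 ± 0.13 (SE, adjusted p = 0.0330) was the only call for E2F5. It was lost without vehicle replicate 1 (adjusted p = 0.0708) or 3 (0.143) or atirmociclib replicate 2 (0.0833) or 3 (0.0855). It was also lost with libraries scaled to equal totals (0.0733) and with no filter on low values (0.0512). With atirmociclib at 2 µM and with ribociclib the values were 0.28 (adjusted p = 0.103) and 0.33 (0.0613). The first was called without its replicate 1 (0.0481), and the second without its replicate 3 (0.0273), vehicle replicate 2 (0.0384), AU2-94 2 µM replicate 2 (0.0481) or atirmociclib 2 µM replicate 3 (0.0445), and both with quantile normalisation (0.0215 and 0.0173). At 72 h they ran from 0.14 to 0.25 with SE 0.15. Exons of E2F5 share 997 bases (16.6% of its exonic length) with RBIS on the opposite strand, and without knowledge of strand in the counting the reads of these genes cannot be told apart.

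E2F6 (ENSG00000169016, chr2:11444375-11466177, minus strand), the repressor that acts through Polycomb complexes, was lower at 72 h. At 72 h, E2F6 stood at 255, 281 and 237 in the vehicle libraries, 191, 157 and 172 with AU2-94 at 1 µM and 169.9, 192 and 184 at 2 µM. Atirmociclib gave 166, 166 and 223 at 1 µM and 121, 218 and 161 at 2 µM, and ribociclib 227, 191 and 206. All 15 treated libraries were below the 3 vehicle libraries, and the treated groups overlapped one another. E2F6 fell by 0.57, 0.50, 0.49 and 0.66 on the log2 scale with AU2-94 at 1 and 2 µM and atirmociclib at 1 and 2 µM (SE 0.17, adjusted p = 0.0149, 0.0342, 0.0291 and 0.00430). With ribociclib the value was -0.31 (adjusted p = 0.188). Of these calls, that for atirmociclib at 2 µM kept its side of the threshold whichever of the 18 libraries was left out. Without vehicle replicate 2 the other calls were lost (adjusted p = 0.0619, 0.117 and 0.102), and without vehicle replicate 1 those for AU2-94 at 2 µM (0.0704) and atirmociclib at 1 µM (0.0600). The call for AU2-94 at 1 µM was also lost without its replicate 2 (0.0618), that for AU2-94 at 2 µM without its replicate 1 (0.0995), 2 (0.0550) or 3 (0.0700), and that for atirmociclib at 1 µM without its replicate 1 (0.105) or 2 (0.104). With no filter on low values, the 72 h call for AU2-94 at 2 µM was lost too (0.0576). At 24 h vehicle was 198, 186 and 299.8, an uneven group, and no E2F6 difference was called (log2 fold changes -0.27 to 0.03, SE 0.19). E2F6 shares stretches of 686 to 691 bases at 99.3% to 99.6% identity with the pseudogenes E2F6P1, E2F6P2 and E2F6P3, so reads from those stretches could be split or lost.

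The atypical repressors E2F7 and E2F8, which form homodimers or a heterodimer and are made in late G1 and S phase, showed the widest ranges of the 10 genes: the highest library was 34.4 times the lowest for E2F7 and 37.7 times for E2F8. At 24 h, E2F7 stood at 580.3, 577 and 470.3 in the vehicle libraries, 175, 199.5 and 187 with AU2-94 at 1 µM and 67.8, 114 and 107 at 2 µM. Atirmociclib gave 29.0, 32.1 and 35.2 at 1 µM and 22.7, 80.9 and 39.2 at 2 µM, and ribociclib 77.6, 78.1 and 101. Vehicle was far above all treated libraries, and atirmociclib at 2 µM was uneven, with replicate 2 above its fellows. The log2 fold changes of E2F7 (ENSG00000165891, chr12:77021248-77065569, minus strand) were -1.53, -2.51, -4.03, -3.66 and -2.65 (SE 0.30, adjusted p 7.06e-09 to 9.72e-04). At 72 h, E2F7 stood at 782, 721 and 539 in the vehicle libraries, 284, 319 and 364 with AU2-94 at 1 µM and 250.0, 457 and 279 at 2 µM. Atirmociclib gave 127, 174 and 144 at 1 µM and 181, 139 and 141 at 2 µM, and ribociclib 324, 141 and 312. Treated libraries were again all below vehicle, though AU2-94 at 2 µM replicate 2 came nearest and ribociclib replicate 2 fell within the atirmociclib range. Log2 fold changes of E2F7 at 72 h were -1.07, -1.08, -2.18, -2.13 and -1.47 (SE 0.27, adjusted p 2.53e-06 to 0.00459).

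E2F8 (ENSG00000129173, chr11:19224063-19241620, minus strand) had the deepest fall. At 24 h, E2F8 stood at 536, 516 and 474 in the vehicle libraries, 152, 125 and 133 with AU2-94 at 1 µM and 65.9, 61.7 and 95.0 at 2 µM. Atirmociclib gave 24.2, 20.2 and 21.7 at 1 µM and 16.1, 41.0 and 14.2 at 2 µM, and ribociclib 94.3, 64.0 and 59.3. With atirmociclib at 1 µM the mean was 4.32% of vehicle, against 26.8% with AU2-94 at the same dose. The log2 fold changes of E2F8 were -1.89, -2.79, -4.47, -4.52 and -2.82 (SE 0.29, adjusted p 7.44e-10 to 8.31e-05). At 72 h, E2F8 stood at 437, 435 and 487 in the vehicle libraries, 201, 244 and 243 with AU2-94 at 1 µM and 256, 187 and 266 at 2 µM. Atirmociclib gave 103, 78.8 and 78.3 at 1 µM and 157, 66.3 and 81.4 at 2 µM, and ribociclib 216, 157 and 147. Vehicle stayed clear of all treated groups, and the atirmociclib groups overlapped each other and, through replicate 1 at 2 µM, ribociclib. Log2 fold changes at 72 h were -0.98, -0.95, -2.38, -2.24 and -1.40 (SE 0.24, adjusted p 2.08e-07 to 0.00521). For E2F1, E2F2, E2F7 and E2F8 every call against vehicle was kept whichever library was left out.

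TFDP1 (ENSG00000198176, chr13:113584721-113641473, plus strand) encodes DP1, the DP subunit most widely used by E2F proteins. At 24 h, TFDP1 stood at 1627, 1690.1 and 1454 in the vehicle libraries, 1380.0, 1189 and 1215 with AU2-94 at 1 µM and 923, 1032 and 1032 at 2 µM. Atirmociclib gave 1149.5, 1079 and 1103 at 1 µM and 1417, 1293 and 1186 at 2 µM, and ribociclib 1296, 1347 and 1233. All treated libraries were below vehicle, and AU2-94 at 2 µM was lowest. The log2 fold changes at 24 h were -0.33, -0.67, -0.52, -0.29 and -0.30 (SE 0.08, adjusted p 2.71e-06 to 0.00683). At 72 h, TFDP1 stood at 2248, 2192 and 2008 in the vehicle libraries, 1271, 1435 and 1360.4 with AU2-94 at 1 µM and 1457, 1381 and 1468 at 2 µM. Atirmociclib gave 1166, 1312 and 1084 at 1 µM and 1216, 1226 and 1224 at 2 µM, and ribociclib 1155, 1183 and 1304. The distance to vehicle was wider at 72 h than at 24 h with every treatment but AU2-94 at 2 µM, vehicle itself was higher, and the order of compounds had changed. Log2 fold changes at 72 h were -0.66, -0.58, -0.86, -0.81 and -0.82 (SE 0.07, adjusted p 1.99e-08 to 7.00e-06), and each TFDP1 call at both times was kept in every run without 1 library.

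TFDP2 (ENSG00000114126, chr3:141944428-142149544, minus strand), the gene of the other DP subunit, did not fall. Vehicle at 24 h stood at 1124, 1376 and 1156, AU2-94 at 1 µM at 1732, 1598 and 1413 and ribociclib at 1412, 1413 and 1787, both above vehicle without overlap. TFDP2 rose by 0.38 with AU2-94 at 1 µM (adjusted p = 0.0302) and 0.33 with ribociclib (0.0486), with SE 0.12. Neither call held in every run. The first was lost without vehicle replicate 1 (0.112) or 3 (0.0949) or AU2-94 replicate 1 (0.121) or 2 (0.0729). The second was lost with replicate number as a block (adjusted p = 0.0543) and without any of 8 libraries, with p up to 0.233 without ribociclib replicate 3, 0.158 and 0.134 without vehicle replicates 1 and 3, and 0.0529 to 0.0567 without AU2-94 1 µM replicate 2, AU2-94 2 µM replicate 3, atirmociclib 1 µM replicate 1 or 2 or atirmociclib 2 µM replicate 3. Both calls were also lost with no filter on low values (0.0517 and 0.0796) and without the mean-variance trend (0.0602 and 0.0870). The ribociclib call was lost with libraries scaled to equal totals too (0.102). At 72 h vehicle was 1763, 1331 and 1351, with replicate 1 apart, and no TFDP2 difference was called (log2 fold changes 0.11 to 0.22). Without vehicle replicate 1, TFDP2 was called higher at 72 h with AU2-94 at 1 µM (adjusted p = 0.0203), atirmociclib at 1 µM (0.0190) and 2 µM (0.0401) and ribociclib (0.0181).

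To compare levels between genes, mean normalised counts were divided by the exonic length of each gene in kb, and the 8 E2F genes were summed per library. The E2F sum per kb was 1368 ± 12.1 (SD, n = 3) in vehicle at 24 h and ran from 810.3 ± 15.3 with atirmociclib at 1 µM to 949 ± 31.3 with AU2-94 at 1 µM. At 72 h it was 1359 ± 44.8 in vehicle and from 960.5 ± 41.7 to 1075 ± 39.0 with treatment. The activators E2F1 to E2F3 made up 52.2% ± 0.481 of the vehicle sum at 24 h and 43.1% ± 0.717 with atirmociclib at 2 µM, but 53.2% ± 0.953 with AU2-94 at 1 µM. At 72 h their share was 53.2% ± 1.41 in vehicle and 53.2% ± 0.718 with atirmociclib at 2 µM, while the other treatments were lower, at 50.7% ± 1.26 and 51.8% ± 0.895 with AU2-94 at 1 and 2 µM, 50.5% ± 1.52 with atirmociclib at 1 µM and 50.1% ± 0.812 with ribociclib.

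The contrast lay within the classes of activators and repressors more than between them. E2F1 with E2F2 went from 34.2% ± 0.738 of the E2F sum per kb in vehicle to 15.1% ± 0.785 with atirmociclib at 2 µM at 24 h, and E2F7 with E2F8 from 15.3% ± 1.39 to 1.62% ± 1.05. E2F4 to E2F6 went from 32.5% ± 1.02 to 55.2% ± 1.33. Their own sum per kb was 444 ± 17.6 in vehicle and 458 ± 19.4 with atirmociclib at 2 µM. The other treatments had lower means than vehicle at 24 h. These were 382 ± 22.3 and 409 ± 31.8 with AU2-94 at 1 and 2 µM, 435 ± 7.09 with atirmociclib at 1 µM and 416 ± 7.88 with ribociclib. With atirmociclib at 2 µM the sum of all 8 E2F genes went from 1368 to 829. At 72 h the share of E2F7 with E2F8 was 16.0% ± 0.939 in vehicle, 10.2% ± 1.14 with AU2-94 at 2 µM, 4.83% ± 1.46 with atirmociclib at 2 µM and 7.80% ± 1.86 with ribociclib. These shares are descriptions without a test, and the lengths are those of GENCODE release 44, which may not be the annotation used for counting.

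**Figure D3:**
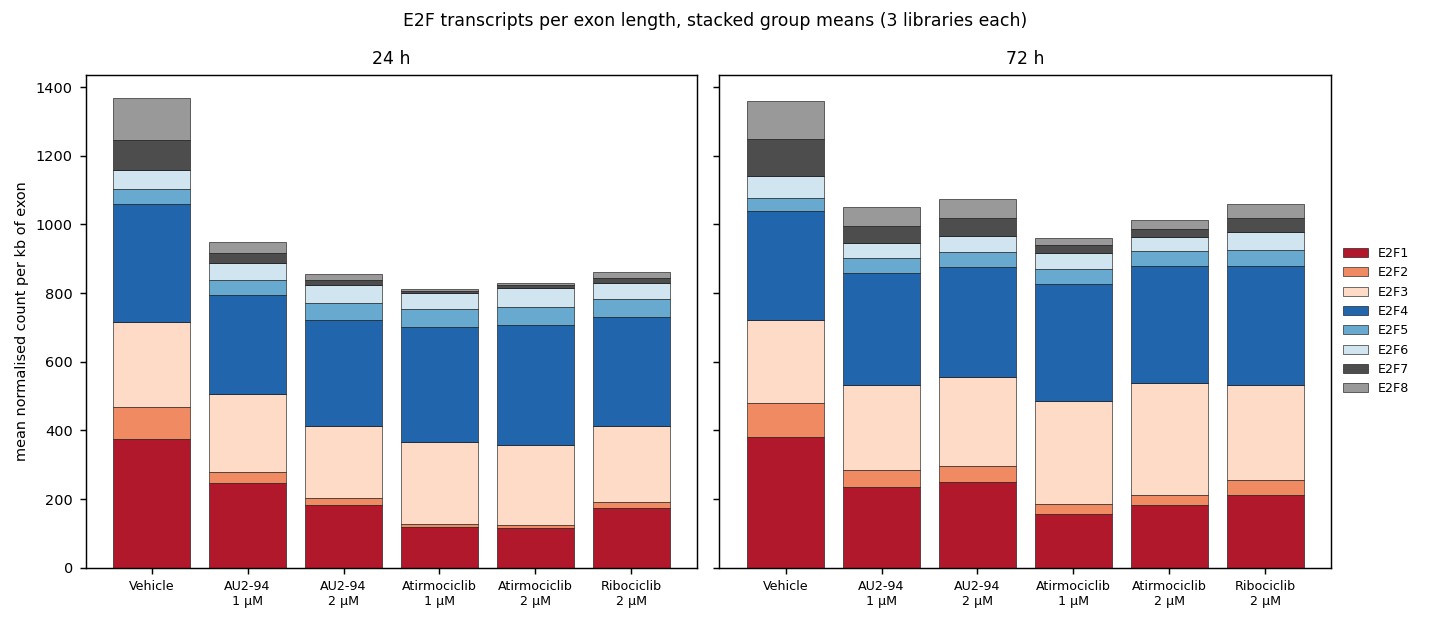
Mean normalised count per kb of exon of E2F1 to E2F8, stacked for each of the 12 groups (bars start at 0, 3 libraries per group). The segments of E2F1, E2F2, E2F7 and E2F8 shrink with treatment while E2F3, E2F4, E2F5 and E2F6 fill most of the bar, and the sum goes from 1368 in vehicle to 810.3 with atirmociclib at 1 µM at 24 h.

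At matched dose and time, atirmociclib gave lower E2F1, E2F2, E2F7 and E2F8 than AU2-94. Over 8 comparisons and 10 genes, 26 of 80 pairs were called, with 95% intervals given here in brackets. At 1 µM and 24 h, atirmociclib minus AU2-94 was -1.07 (-1.26 to -0.89) on the log2 scale for E2F1, -1.60 (-1.97 to -1.22) for E2F2, -2.51 (-3.15 to -1.87) for E2F7 and -2.58 (-3.19 to -1.97) for E2F8. These were the 4 of 10 genes called lower (adjusted p 1.18e-07, 8.17e-06, 2.44e-05 and 1.04e-05), against 3.16% of all genes. At 2 µM and 24 h the same 4 genes were lower (4.31% of all genes), with differences of -0.66, -1.17, -1.15 and -1.73 (adjusted p 1.06e-04, 3.94e-04, 0.0221 and 9.83e-04). TFDP1 went the other way, 0.38 higher with atirmociclib (adjusted p = 0.00457, 5.12% of genes called higher). The E2F7 difference at 2 µM was lost without AU2-94 replicate 2 (adjusted p = 0.0856) or 3 (0.0717) or atirmociclib replicate 1 (0.102) or 3 (0.0687). It was also lost with only these groups in the fit (0.144) and with quantile normalisation (0.0656).

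At 72 h the same genes still differed. At 1 µM, atirmociclib minus AU2-94 was -0.57 (-0.72 to -0.41) for E2F1, -0.79 (-1.13 to -0.45) for E2F2, -1.12 (-1.67 to -0.56) for E2F7 and -1.40 (-1.90 to -0.90) for E2F8 (adjusted p 4.41e-05, 0.00437, 0.0119 and 7.65e-04, with 3.70% of all genes called lower). At 2 µM the differences were -0.45 (-0.61 to -0.30), -0.68 (-1.02 to -0.33), -1.05 (-1.61 to -0.49) and -1.29 (-1.79 to -0.79) in the same order of genes (adjusted p 2.17e-04, 0.00610, 0.00817 and 6.68e-04, 8.73% of all genes). The E2F7 calls were lost at 1 µM without AU2-94 replicate 3 (0.0558) or atirmociclib replicate 1 (0.0549), and at 2 µM without AU2-94 replicate 2 (0.0572). E2F3 was higher with atirmociclib, by 0.26 at 1 µM (adjusted p = 0.00388) and 0.34 at 2 µM (1.39e-04), where 4.53% and 11.1% of all genes were called higher. TFDP1 at 2 µM was lower, at -0.23 (adjusted p = 0.0272), the reverse of its direction at 24 h, and this call was lost without AU2-94 replicate 1 (0.0750) or 3 (0.0888) or any atirmociclib replicate (0.0718, 0.0599 and 0.0604).

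**Figure D4:**
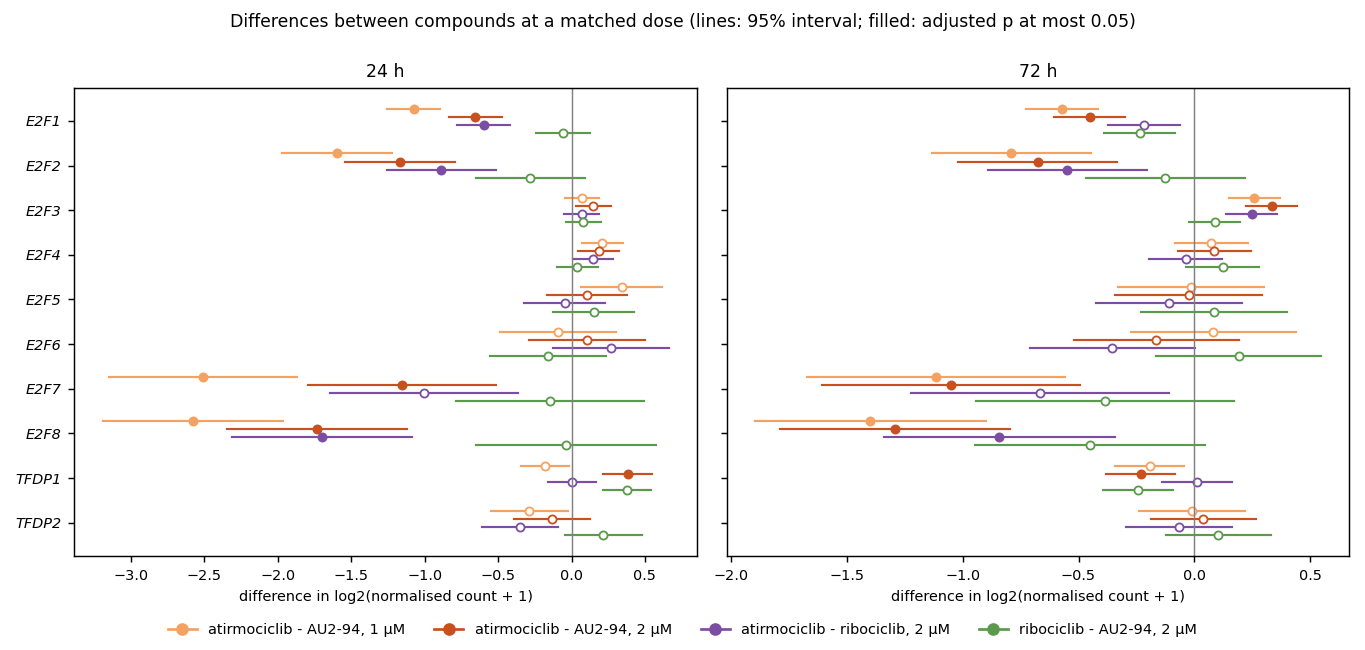
Differences in log2(normalised count + 1) between compounds at the same dose and time for each E2F and DP gene, with 95% intervals (limma, 3 libraries per group) and filled points where the adjusted p was at most 0.05. Atirmociclib lies below AU2-94 for E2F1, E2F2, E2F7 and E2F8, and the intervals of ribociclib minus AU2-94 cross 0 for most genes.

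Ribociclib and AU2-94 at 2 µM gave no called difference among the 10 genes at either time. At 24 h 0.0372% of all genes were called, and at 72 h 3.34%. At 24 h ribociclib minus AU2-94 was -0.06 (-0.24 to 0.12) for E2F1, -0.28 (-0.65 to 0.09) for E2F2, -0.14 (-0.78 to 0.49) for E2F7 and -0.04 (-0.65 to 0.58) for E2F8. The unadjusted p was under 0.05 for 1 gene at 24 h, TFDP1 at 0.38 (0.21 to 0.54) with adjusted p = 0.0671, which was 0.0150 with all 12 groups in the fit, 0.0494 when genes with a mean under 100 were left out and 0.0478 without atirmociclib replicate 3. At 72 h it was under 0.05 for 2 genes, E2F1 at -0.24 (-0.39 to -0.08) and TFDP1 at -0.24 (-0.39 to -0.09), with adjusted p 0.0902 and 0.0721. Both were called with libraries scaled to equal totals (0.0492 and 0.0400), and TFDP1 also without ribociclib replicate 3 (0.0489). The 72 h intervals of E2F2, E2F7 and E2F8 were -0.47 to 0.22, -0.94 to 0.17 and -0.95 to 0.05.

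Atirmociclib also gave lower values than ribociclib at 2 µM for some of these genes. At 24 h the difference was -0.60 (-0.78 to -0.42) for E2F1, -0.89 (-1.26 to -0.51) for E2F2 and -1.70 (-2.31 to -1.09) for E2F8 (adjusted p 4.23e-04, 0.00592 and 0.00176), with 2.81% of all genes called lower. With only these groups in the fit, the E2F2 (0.0629) and E2F8 (0.0575) calls were lost, as they were at 72 h (0.123 and 0.149). E2F7 was at -1.01 (-1.65 to -0.37) with adjusted p = 0.0709, which became 0.0494 with replicate number as a block and 0.00193 without atirmociclib replicate 2, the library that stood above its group. TFDP1 gave no called difference between these compounds at 24 h (0.00, interval -0.16 to 0.17). At 72 h E2F2 was at -0.55 (adjusted p = 0.0410) and E2F8 at -0.84 (0.0305), with 4.35% of all genes called lower, and E2F3 was 0.25 higher (0.00482, 4.83% of all genes called higher). The E2F2 call was lost without ribociclib replicate 1 (0.175) or 3 (0.119), atirmociclib replicate 2 (0.130) or 3 (0.104), AU2-94 2 µM replicate 2 (0.0510) or vehicle replicate 2 (0.0512), and the E2F8 call without atirmociclib replicate 2 (0.154) or 3 (0.111) or ribociclib replicate 1 (0.131). Both calls were also lost with no filter on low values (0.0690 and 0.0557), without the mean-variance trend (0.0687 and 0.0649) and with quantile normalisation (0.0729 and 0.0540). E2F1 and E2F7 at 72 h were at -0.22 (-0.37 to -0.06) and -0.67 (-1.22 to -0.11) and were not called. E2F1 was called with libraries scaled to equal totals (0.0218), and E2F7 without ribociclib replicate 2, at -1.05 (0.00573).

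Between the doses of a compound, few of the genes passed the test. Of 40 pairs of gene and dose comparison 1 was called, E2F1 with AU2-94 at 24 h, where the means were 665 ± 25.1 at 1 µM and 492 ± 54.7 at 2 µM (SD, n = 3). The log2 difference was -0.44 (-0.62 to -0.26) with adjusted p = 0.0285, and 0.409% of all genes were called. This call was lost without AU2-94 1 µM replicate 1 (0.143), 2 (0.0602) or 3 (0.105) or 2 µM replicate 1 (0.190), and with only these groups in the fit (0.210). E2F2, E2F7, E2F8 and TFDP1 were at -0.60 (-0.97 to -0.22), -0.98 (-1.62 to -0.34), -0.89 (-1.50 to -0.28) and -0.34 (-0.50 to -0.18) in this comparison, with adjusted p 0.234, 0.278, 0.319 and 0.0732. Atirmociclib at 2 against 1 µM gave -0.02 (-0.20 to 0.16) for E2F1 and -0.05 (-0.66 to 0.56) for E2F8 at 24 h, where no gene of the 10 was called, 1 had an unadjusted p under 0.05 and 0.0124% of all genes were called. At 72 h the E2F1 difference was 0.09 (-0.06 to 0.25) for AU2-94, with none of the 10 genes under an unadjusted p of 0.05 and 0% of all genes called, and 0.21 (0.06 to 0.37) for atirmociclib (adjusted p = 0.152), with 2 genes under it and 2.19% of all genes called.

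In vehicle, 1 of the 10 genes differed between 72 h and 24 h, TFDP1, at 2149 ± 126 against 1590.2 ± 122 (SD, n = 3), a log2 difference of 0.44 ± 0.08 (SE, adjusted p = 2.72e-04), where 7.50% of all genes were called. The vehicle means of E2F1, E2F2 and E2F3 at 24 h were 1008 ± 53.3, 506 ± 83.7 and 1282 ± 32.2, and at 72 h 1026 ± 88.3, 544 ± 54.1 and 1255 ± 42.6. E2F7 and E2F8 were at 0.32 (-0.30 to 0.93) and -0.17 (-0.73 to 0.40) between the times.

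The distance to vehicle was smaller at 72 h than at 24 h for E2F1, E2F2, E2F7 and E2F8 under most treatments. The difference between the effects was called for 24 of 50 pairs, 20 of them upward and 4 downward, where 21.6%, 18.5%, 21.9%, 21.6% and 20.2% of all genes were called with the 5 treatments in the same order. E2F8 with atirmociclib at 2 µM went from -4.52 to -2.24, a change of 2.28 ± 0.39 (SE, adjusted p = 6.43e-05), and with AU2-94 at 2 µM from -2.79 to -0.95, a change of 1.84 (9.81e-04). With AU2-94 at 1 µM the changes of E2F1, E2F2, E2F7 and E2F8 were -0.10, 0.54, 0.46 and 0.91 and were not called (adjusted p 0.546, 0.117, 0.491 and 0.0976). E2F3 changed upward too, by 0.52 ± 0.07 with atirmociclib at 2 µM (adjusted p = 1.82e-06), in its case from near vehicle to above it. TFDP1 changed downward with 4 treatments, the value being -0.53 ± 0.11 with ribociclib (4.88e-04), and its vehicle level was the one that rose between the times.

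**Figure D5:**
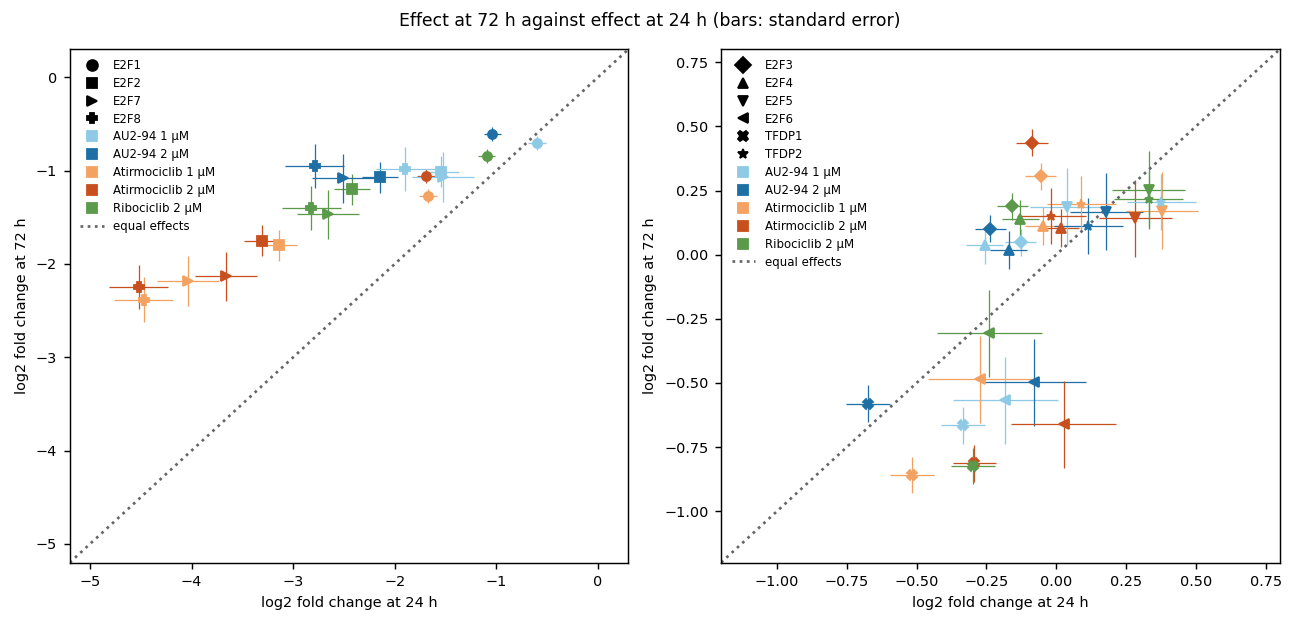
Log2 fold change against vehicle at 72 h (vertical) and 24 h (horizontal) for each gene and treatment, with SE bars and a line where both are equal. Most points of E2F1, E2F2, E2F7 and E2F8 (left) lie above the line, as with E2F8 and atirmociclib at 2 µM (-4.52 at 24 h, -2.24 at 72 h), and 4 of the 5 points of TFDP1 (right) lie below it.

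Other genes of the pathway were read from lists of known E2F targets and partners. Of 24 E2F targets of the G1/S transition, 22 to 24 were called lower per treatment at 24 h and 22 or 23 at 72 h, and none higher. Among all genes, 13.5% to 16.2% and 15.3% to 19.8% were called lower at these times. The medians of this list were -1.95 to -0.89 on the log2 scale at the earlier time and -1.17 to -0.57 at the later, while the median over all genes stayed between -0.01 and 0.01. RRM2, a subunit of ribonucleotide reductase, was at -4.43 to -1.95 at 24 h, against -2.20 to -1.02 at 72 h. CCNE2 (cyclin E2) ran from -4.52 to -1.63 and from -2.31 to -0.90, and CCNA2 (cyclin A2) from -3.83 to -1.91 and from -2.21 to -0.80, all called lower with 5 of 5 treatments at each time. Atirmociclib was called lower than AU2-94 for 23 of the 24 targets at 1 µM and 19 at 2 µM at 24 h, and for 18 and 23 at 72 h. The shares of all genes called lower in these comparisons were 3.16%, 4.31%, 3.70% and 8.73%. Ribociclib minus AU2-94 gave 0 called targets at 24 h, with 6 at an unadjusted p under 0.05, and 6 at 72 h. In these 2 comparisons 0.0372% and 3.34% of all genes were called.

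Among the partners of E2F proteins, the 3 pocket protein genes went separate ways. RBL1 (p107), itself an E2F target and also in the list of 24, was lower with 5 of 5 treatments at 24 h (-1.52 to -0.61) and 4 of 5 at 72 h (-1.35 to -0.30). RBL2 (p130) was higher with 5 of 5 at both times (0.45 to 0.56 and 0.34 to 0.58). RB1 was lower with 2 of 5 at 24 h and 1 of 5 at 72 h, between -0.36 and -0.07 and between -0.22 and -0.05. Of the 5 MuvB genes, whose proteins join E2F4 and p130 or p107 in the DREAM complex, 1 to 4 were lower per treatment at 24 h and 0 or 1 at 72 h, where 13.5% to 16.2% and 15.3% to 19.8% of all genes were called lower.

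Of 12 genes for cyclins, kinases and inhibitors upstream of E2F, 11 were tested, of which 5 or 6 were lower and 1 higher per treatment at 24 h, and 6 or 7 lower and 1 higher at 72 h. Of all genes, 13.5% to 16.2% were called lower and 14.3% to 18.6% higher at 24 h. At 72 h, 15.3% to 19.8% were lower and 14.2% to 20.9% higher. The 1 of 11 called higher was thus not above the share of all genes. CDKN2C (the CDK4 and CDK6 inhibitor p18) had the largest mean change of these, -3.14 to -1.58 at 24 h and -2.73 to -1.11 at 72 h. CDK2, which the study also counts among the targets of E2F1, was at -1.47 to -0.69 and -1.06 to -0.56. Of the 4 ubiquitin ligase subunits that act on E2F proteins, 3 or 4 were lower at 24 h and 3 at 72 h, with CCNF (cyclin F) at -2.05 to -1.49 and -1.26 to -0.43 and SKP2 at -0.84 to -0.56 and -0.81 to -0.51. Of 7 apoptosis genes known as E2F1 targets, 1 to 3 were lower at 24 h and 2 to 4 at 72 h, against 13.5% to 16.2% and 15.3% to 19.8% of all genes, so that the lowest count was near the share of all genes. PMAIP1 (NOXA) was at -0.86 to -0.38 and -1.44 to -0.80. None was higher at 24 h, and 1, TP73 (p73, named after its values were seen), was higher with 4 of 5 treatments at 72 h (0.32 to 0.42).

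Around E2F6, 2 to 4 of the 9 PRC1.6 genes were lower at 24 h and 1 to 4 at 72 h, with at most 1 higher. The lowest of these counts were near the shares of all genes called lower, 13.5% to 16.2% and 15.3% to 19.8%. The shares of all genes called higher were 14.3% to 18.6% and 14.2% to 20.9%. PCGF6, the subunit that defines the complex, was at -0.83 to -0.68 at 24 h (5 of 5 lower) and -0.73 to -0.32 at 72 h (2 of 5). Of 6 germline genes that E2F6 or PRC1.6 are known to silence, 5 were in the table and 1 passed the filter, STAG3, which was higher with 1 of 5 treatments at 24 h (0.53 to 1.73) and none at 72 h (-0.39 to 0.67).

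The genes most like each member were ranked by Pearson correlation over the 12 group means of log2(normalised count + 1), among 11336 genes. The points share libraries, vehicle and scaling, so the values are descriptions. For E2F2 they were RRM2 (0.995), ASF1B (0.995) and FBXO5 (0.994), for E2F7 ASF1B (0.996), FBXO5 (0.996) and EXO1 (0.994) and for E2F8 FBXO5 (0.996), H2AC4 (0.995) and H2AC11 (0.993), and for E2F1 PAQR4 (0.987), CDC25A (0.985) and CDK2 (0.981). Ribonucleotide reductase subunit RRM2, the histone chaperone ASF1B and the APC/C inhibitor FBXO5 are genes of S phase. For E2F3 the closest were CEP170B (0.971), TICAM1 (0.969) and FGFRL1 (0.965), for TFDP1 OBI1 (0.961), for TFDP2 PPL (0.940), for E2F4 CDK5RAP1 (0.900), for E2F5 SMDT1 (0.915) and for E2F6 RMC1 (0.926). Among the members E2F2 and E2F7 correlated at 0.991, E2F7 and E2F8 at 0.990 and E2F2 and E2F8 at 0.988, and E2F1 with these at 0.949 to 0.970. E2F5 ran against E2F1, E2F2, E2F7 and E2F8 (-0.892 to -0.816), while E2F1 and E2F3 (-0.01) and TFDP1 and TFDP2 (-0.03) were near 0.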

How the data were processed

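LNCaP RNA (TRIzol, Universal Plus Total RNA-Seq library kit) was sequenced by the authors in 36 libraries. Per the labels and the study's methods, reads were processed with nf-core/rnaseq and aligned with STAR 2.6.1d to GRCh38, and DESeq2 was applied. The read counter, annotation release and strand setting are not given in the sources used here. The deposited values are a signal of normalised read counts per gene, not whole numbers, and how their size factors were made is not stated, so the depth behind each value is unknown and limma was used in place of a count model. Values were taken as log2(normalised count + 1), so fold changes of low genes are understated. Genes at 10 or more in at least 3 libraries were kept (16137 at 24 h, 16341 at 72 h, 16850 for both times). limma 3.58.1 (R 4.3.3) fitted the 6 groups of a time together, and all 12 groups for vehicle over time and for changes of effect, with eBayes and a mean-variance trend. P-values were adjusted by Benjamini-Hochberg over all genes tested in each of 28 contrasts, and an adjusted p of at most 0.05 was a call. The fit was tested on simulated data. The study's methods call the libraries of a condition biological replicates, without saying how they were separated, and p-values measure the spread between them. Replicate numbers name the batches, and a fit with them as a block was the alternative. The correlation of deviations from the group means averaged -1.13e-05 at 24 h and -0.000503 at 72 h between libraries of the same number (45 pairs each). The genes named were the 10 members, the 3 genes of each list with the largest mean change against vehicle, and the 3 genes most correlated with each member. Members, lists and tests were chosen with earlier results of these data known. Positions and exonic lengths are from GENCODE 44, overlaps with near-identical sequences from BLAST 2.17.0, and promoter windows from RefSeq.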

Additional observations from a re-analysis of the deposited data

Results flagged for a closer look

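The effect of a treatment against vehicle differed between 72 h and 24 h for 24 pairs of gene and treatment, each by a test of the difference itself (limma, all 12 groups in 1 fit). Values are the log2 effect at 72 h minus that at 24 h. For E2F1 they were 0.43 (AU2-94 2 µM), 0.40 (atirmociclib 1 µM) and 0.63 (atirmociclib 2 µM) (SE 0.11, adjusted p 0.00463, 0.00683 and 5.91e-05). For E2F2 they were 1.07 (AU2-94 2 µM), 1.34 (atirmociclib 1 µM), 1.56 (atirmociclib 2 µM) and 1.23 (ribociclib) (SE 0.24, adjusted p 0.00181, 1.22e-04, 1.60e-05 and 4.08e-04). In these genes the effect was a fall at both times and a smaller one at 72 h. For E2F7 the values were 1.43 (AU2-94 2 µM), 1.85 (atirmociclib 1 µM), 1.53 (atirmociclib 2 µM) and 1.19 (ribociclib) (SE 0.43, adjusted p 0.0171, 0.00179, 0.00939 and 0.0471), and for E2F8 1.84 (AU2-94 2 µM), 2.09 (atirmociclib 1 µM), 2.28 (atirmociclib 2 µM) and 1.42 (ribociclib) (SE 0.39, adjusted p 9.81e-04, 1.89e-04, 6.43e-05 and 0.00917). E2F3, called higher than vehicle at 72 h with atirmociclib and ribociclib but not with AU2-94, gave 0.34 (AU2-94 2 µM), 0.36 (atirmociclib 1 µM), 0.52 (atirmociclib 2 µM) and 0.35 (ribociclib) (SE 0.07, adjusted p 8.32e-04, 3.09e-04, 1.82e-06 and 5.66e-04). E2F4 gave 0.29 (AU2-94 1 µM) (SE 0.10, adjusted p 0.0306). TFDP1 stood further below vehicle at 72 h, with -0.33 (AU2-94 1 µM), -0.34 (atirmociclib 1 µM), -0.52 (atirmociclib 2 µM) and -0.53 (ribociclib) (SE 0.11, adjusted p 0.0241, 0.0188, 5.17e-04 and 4.88e-04). Its vehicle mean itself rose from 1590.2 at 24 h to 2149 at 72 h. The treated means went from 1261 to 1356, 1110 to 1188, 1299 to 1222 and 1292 to 1214 in the same order. Seeding density changed with time, and its part cannot be told apart.

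Some of these calls were lost under other processing or when 1 library was left out. That of E2F7 with ribociclib was lost with no filter on low values (0.0854), without the mean-variance trend (0.0670) and with quantile normalisation (0.0677). That of TFDP1 with AU2-94 at 1 µM was lost with libraries scaled to equal totals (0.0826). The E2F7 call with ribociclib was lost without any of 24 of the 36 libraries, with adjusted p of 0.132 and 0.129 without ribociclib 72 h replicates 1 and 3, 0.0905 and 0.0893 without ribociclib 24 h replicates 1 and 2, 0.0885 and 0.0860 without vehicle 24 h replicates 1 and 2, 0.0626 and 0.118 without vehicle 72 h replicates 2 and 3, and 0.05002 to 0.0522 without any of 16 libraries of AU2-94 or atirmociclib. The E2F7 call with AU2-94 at 2 µM was lost without its 24 h replicate 1 (0.0573), its 72 h replicate 2 (0.0690) or vehicle 72 h replicate 3 (0.0514). The E2F4 call was lost without AU2-94 1 µM 24 h replicate 2 (0.0658) or 3 (0.0616), AU2-94 1 µM 72 h replicate 1 (0.0975), vehicle 24 h replicate 2 (0.0514) or 3 (0.0623) or vehicle 72 h replicate 1 (0.0891) or 2 (0.0586). The TFDP1 call with AU2-94 at 1 µM was lost without its 24 h replicate 1 (0.0903), its 72 h replicate 1 (0.0733), vehicle 24 h replicate 3 (0.0857) or vehicle 72 h replicate 1 (0.0624) or 2 (0.0536), and that with atirmociclib at 1 µM without its 72 h replicate 3 (0.0711), vehicle 24 h replicate 3 (0.0705) or vehicle 72 h replicate 1 (0.0510).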

How the results depend on the processing

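Log2 fold changes of the 10 genes in 28 contrasts gave 280 values, and none that was called changed sign under any alternative. A pseudocount of 8 changed no call, and between 267 and 277 of 280 values kept their side of the threshold under another filter, scaling, trend or block or with only the groups compared, as did 217 of 220 with all 12 groups in 1 fit. The number of pairs called higher than vehicle at 24 h, 3, was 0 with no filter on low values, 1 with libraries scaled to equal totals, 5 with quantile normalisation and 1 without the mean-variance trend. The number called between doses, 1, was 2 with all 12 groups in 1 fit and 0 with only the groups compared. The cause was not tested. Leaving out 1 library at a time gave 27 to 29 pairs lower and 0 to 4 higher at 24 h, 26 to 29 lower and 3 to 7 higher at 72 h, 23 to 27 between compounds, 0 or 1 between doses, 21 to 25 changes of effect and 1 gene in vehicle. The 0 came without vehicle 24 h replicate 1 or 3, and the 7 without vehicle 72 h replicate 1, where TFDP2 was called with 4 treatments.

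With replicate number as a block, the pairs lower and higher than vehicle numbered 27 and 2 at 24 h and 29 and 3 at 72 h, with 27 between compounds, 24 changes of effect, 1 between doses and 1 in vehicle. The block changed the calls of E2F3 and TFDP2 with ribociclib at 24 h and of E2F7 for atirmociclib against ribociclib at 24 h, given above, and no other call of these genes. Scaling libraries to equal totals shifted the median of all genes by over 0.1 in 1 contrast, to -0.105 for atirmociclib against AU2-94 at 2 µM and 72 h. With 3 libraries per group, the SE of a comparison with vehicle ranged from 0.05 for E2F3 at 72 h to 0.30 for E2F7 at 24 h, which limits what could be detected.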

Other observations

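The balance of the DP genes shifted toward TFDP2. The log2 ratio of TFDP1 over TFDP2, in normalised counts per kb of exon, was 2.05 ± 0.13 (SD, n = 3) in vehicle at 24 h, 1.26 ± 0.25 with AU2-94 at 2 µM, 1.78 ± 0.22 with atirmociclib at 2 µM and 1.43 ± 0.25 with ribociclib. At 72 h it was 2.22 ± 0.19 in vehicle and 1.52 ± 0.20, 1.25 ± 0.09 and 1.18 ± 0.10 with the same treatments. TFDP1 was the larger per kb in all groups, and the ratio was not tested. This rank depends on the exonic lengths used, 3744 bases for TFDP1 and 11897 for TFDP2. Before division by length, TFDP2 was the larger in some groups, as with ribociclib at 72 h (1708 against 1214). In others TFDP1 was the larger, as in vehicle at 72 h (2149 against 1482).

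Among the listed genes not yet named, CDC20, a subunit of the anaphase-promoting complex, was lower with 5 of 5 treatments at both times (-2.06 to -1.67 and -1.23 to -0.73), and CDKN2A, the locus of the inhibitors p16 and p14ARF, likewise (-0.70 to -0.50 and -1.21 to -0.58). LIN52, a MuvB subunit, was lower with 3 of 5 treatments at 24 h (-0.68 to -0.34) and 3 of 5 at 72 h (-0.83 to -0.15). L3MBTL2 of PRC1.6 was lower with 5 of 5 at 24 h (-0.32 to -0.19) and 1 of 5 at 72 h, and CBX3 with 2 of 5 at 24 h and 5 of 5 at 72 h (-0.27 to -0.16).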
